A study of Mus musculus with 31 samples.

Results

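Peg10, Mest and Nap1l5 lie on mouse chromosome 6 and each has a control region whose methylation is set in the egg. The 3 regions were taken by mm9 position, with 89 CpG sites listed there in any library, of 1419929 sites in the whole series. They were set beside 65233 other windows of 3000 bp that were measured in at least 1 library. The Peg10 region spans bases 4696500 to 4699500, the Mest region 30684500 to 30689500 and the Nap1l5 region 58856000 to 58858500.

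Imprinted genes are expressed from 1 parental copy, and the mark that tells the copies apart is DNA methylation laid down in the germ line. At maternally methylated control regions the growing oocyte acquires it from DNMT3A with its cofactor DNMT3L, and after fertilisation the paternal copy stays unmethylated and active. Peg10 is a gene derived from a retrotransposon that the placenta needs to form, Mest (also called Peg1) encodes a protein of the alpha/beta hydrolase fold family, and Nap1l5, related to nucleosome assembly proteins, sits within an intron of Herc3. All 3 are expressed from the paternal copy.

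The samples were 31 reduced representation bisulfite sequencing libraries of B6D2F1 mouse oocytes, made from DNA cut by MspI at CCGG. Bisulfite turns unmethylated C into T, so the level is the percentage of reads that kept C, here summed over the sites of a region that had at least 5 reads in the library. Oocytes came from primordial follicles (Type1 and Type2, 3 libraries each), primary follicles (Type3a and Type3b, 3 each), secondary follicles (Type4 and Type5a, 5 each, and Type5b, 3) and antral follicles (Type6 and Type7, 3 each). Replicates are numbered 1, 2 and 4 in Type3a, 1, 2, 4, 5 and 6 in Type4, 1, 4, 5, 6 and 7 in Type5a and 1 to 3 elsewhere, and values follow that order. One more label gives stages of the embryo, which goes against the titles, and was left aside. The labels do not give the number of oocytes or the age of the mice, and do not say that replicate libraries are of separate animals, so a p-value here reflects the spread among libraries alone, and that spread may be technical.

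In each region nearly all reads came from 1 short stretch, a size that an MspI fragment gives. In Peg10 it was 13 sites between 4697355 and 4697490, with 99.9% of the reads. In Mest it was 10 sites between 30685294 and 30685477, with 94.2% of the reads, and in Nap1l5 8 sites between 58856628 and 58856763, with 98.7%. The deposited files give the letters around each CpG, and these were joined to show which sites carry the values reported here. Plus strand, mm9, with CpG in capitals and n where the files give no letter, they read as follows.
Peg10: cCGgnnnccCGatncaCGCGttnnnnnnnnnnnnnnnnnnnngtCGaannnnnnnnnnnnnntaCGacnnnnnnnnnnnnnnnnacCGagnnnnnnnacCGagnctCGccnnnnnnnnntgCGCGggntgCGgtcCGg
Mest: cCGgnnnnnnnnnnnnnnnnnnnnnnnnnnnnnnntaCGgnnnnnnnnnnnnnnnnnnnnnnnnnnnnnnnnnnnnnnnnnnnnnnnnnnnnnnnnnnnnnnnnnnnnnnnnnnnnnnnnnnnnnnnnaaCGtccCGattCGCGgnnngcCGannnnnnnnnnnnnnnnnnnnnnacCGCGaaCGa
Nap1l5: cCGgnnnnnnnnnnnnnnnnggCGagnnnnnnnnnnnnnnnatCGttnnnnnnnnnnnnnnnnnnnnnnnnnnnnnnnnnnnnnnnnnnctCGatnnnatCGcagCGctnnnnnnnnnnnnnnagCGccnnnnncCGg
The Peg10 and Nap1l5 stretches begin and end with the CCGG that MspI cuts. Most levels rest on these stretches alone. Sites outside them changed 5 levels. Mest was 26.1% in Type1 replicate 3 and 0.817% in Type4 replicate 6, against 37.9 and 0% on its stretch alone. Nap1l5 was 46.8% in Type4 replicate 2 and 16.8% in Type6 replicate 2, against 37.0 and 23.2% on its stretch. Peg10 was 61.8% in Type5b replicate 1, against 63.7%.

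Depth differed between the regions. Reads here are added over sites, so 1 read that spans several sites counts once at each. Peg10 was measured in 30 libraries with a median of 514.5 reads over its sites (lowest 162, highest 2004), and not in Type7 replicate 3. Nap1l5 was measured in 30 libraries with a median of 244 reads (46 to 611), and not in Type6 replicate 1. Mest was measured in 18 libraries with a median of 113.5 reads (30 to 612), and in Type5b replicate 2 on 2 sites and 30 reads. Mest is thus read in 1 to 3 libraries a stage.

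Libraries of 1 stage also differed from each other. In 9 libraries the X measure, the level of CpG-dense 100-bp tiles on the X minus that of CpG-dense autosomal tiles, was above 0. They were Type1 replicate 3 (1.09 points), Type3a replicate 1 (1.86), Type4 replicates 1, 2 and 5 (6.75, 10.6 and 9.94), Type5a replicates 5 and 7 (0.978 and 3.23) and Type6 replicates 1 and 2 (1.04 and 1.31). CpG islands of the inactive X are methylated in female somatic cells. The measure also differed by stage, at -6.67 to -2.54 points in Type5b and -5.68 to -3.93 in Type7. The cut at 0 thus leaves out no library of these 2 stages. The part of this measure in the values of the regions was not tested, and values without these libraries are given beside the results.

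Peg10 was low in most libraries up to Type5a but raised in some, intermediate in Type5b and nearly full in Type6 and Type7. Type1 libraries had 14.1, 0 and 62.3% and Type2 libraries 10.9, 6.37 and 6.72%. Type3a libraries had 68.6, 7.41 and 12.8%, and Type3b libraries 0.574, 48.1 and 1.59%. The 3 highest values up to the primary stage, 62.3, 68.6 and 48.1%, thus came 1 each from Type1, Type3a and Type3b, in 2 cases from libraries of X measure above 0 (Type1 replicate 3 and Type3a replicate 1). In secondary follicles Type4 had 27.8, 36.2, 13, 4.62 and 2.87%, Type5a 41.4, 5.16, 0.966, 0 and 26.6%, and Type5b 61.8, 81.6 and 49.5%. Antral oocytes had 95.1, 91.2 and 97.5% in Type6 and 97.9 and 100% in Type7. All 3 Type5b libraries lay above all 5 of Type5a, and all 3 of Type6 above all of Type5b.

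Mest was at or near 0 in most libraries before Type5b and high in Type7. It had 26.1% in Type1 replicate 3, 0% in Type2 replicate 3, 6.48% in Type3a replicate 2, and 9.90, 0 and 0% in Type3b. Type4 replicates 1, 5 and 6 had 0, 0 and 0.817%, and Type5a replicates 1, 5 and 7 had 1.92, 0 and 63.1%. Type5a replicate 7 thus stood far above its neighbours, on 65 reads added over 10 sites, with 5 to 7 reads at each. Its Wilson 95% interval was 50.9 to 73.8%. That interval takes reads at neighbouring sites as independent, so it is too narrow even for counting error. Type5b had 59.3% in replicate 1 and 0 of 30 reads in replicate 2, with 15 reads at each of 2 sites. Taken as independent, 30 reads allow up to 10% at those 2 sites, and linked reads allow more. Type6 had 52.0 and 85.7%, and Type7 84.7 and 100%.

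Nap1l5 was near 0 in most libraries up to Type4 and high in all 3 Type5b libraries. Type1 had 3.28, 0 and 22.4%, Type2 0.851, 4.21 and 1.16%, Type3a 6.08, 2.15 and 0%, and Type3b 2.43, 0 and 0%. Type4 had 4.73, 46.8, 0, 2.35 and 0.265%, and Type5a 5.43, 0, 6.08, 26.7 and 24.9%. Type5b had 89.4, 70.5 and 64.0%. The Type6 libraries were far apart, at 16.8% in replicate 2 and 97.5% in replicate 3. Type7 had 99.6, 100 and 96.8%. The high Type4 library (replicate 2) and the low Type6 library (replicate 2) are both of X measure above 0, and the Type4 one rests on 47 reads.

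**Figure D1:**
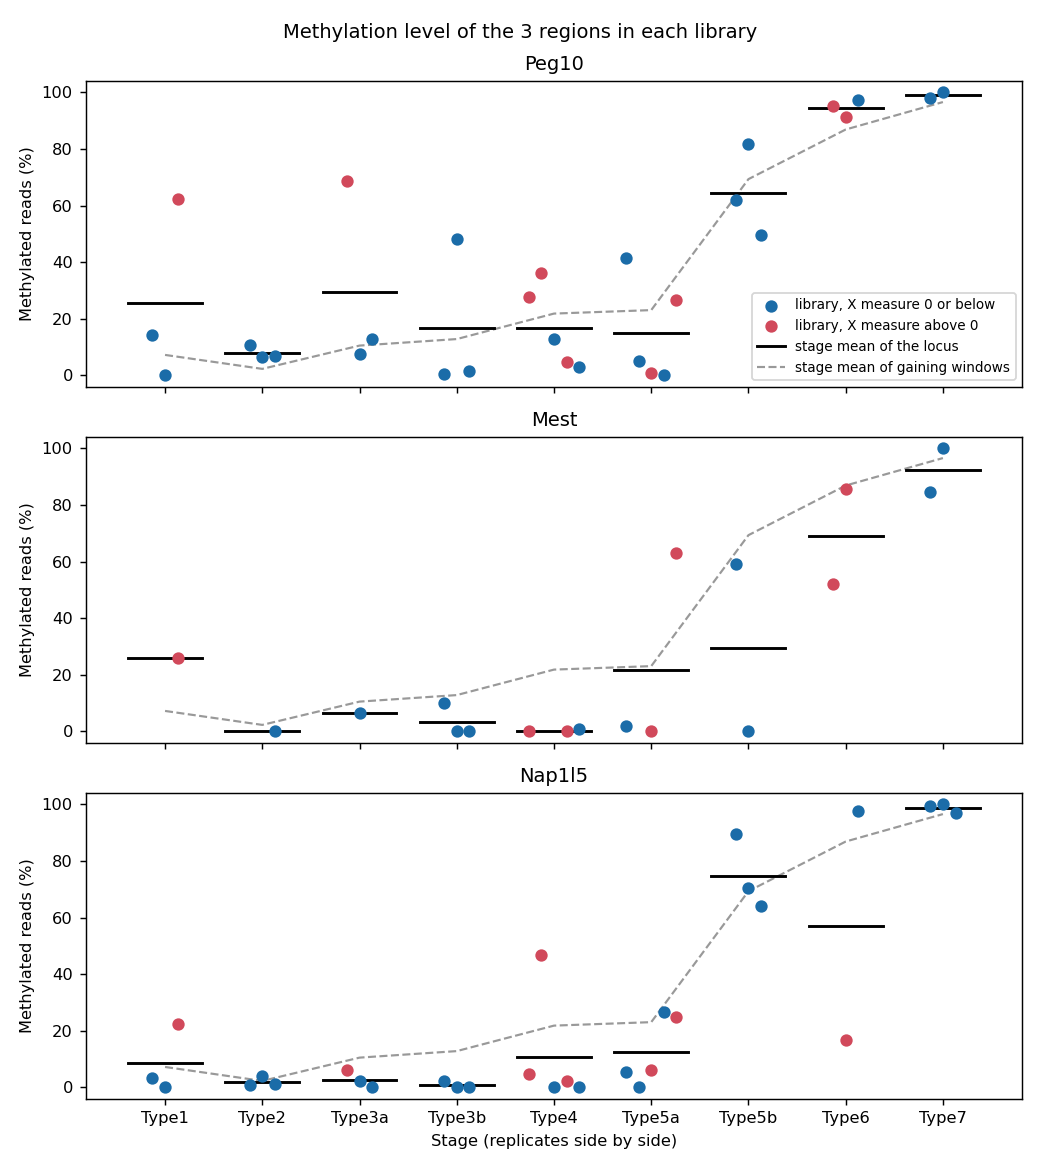
Level of each region (percent of methylated reads) in each library, by stage in order of follicle growth; black bars are stage means, and the dashed line is the stage mean of the windows above 80% in Type7 and below 10% in Type2. Type5b libraries of Peg10 (49.5 to 81.6%) and Nap1l5 (64.0 to 89.4%) sit above every Type5a library. The share of all windows that separate in this way was not counted. The dashed line rises from 23.1 to 69.3% at that step, and Mest has 2 points in Type5b.

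The comparison of stages asks at which step the mark appears. Each step was tested in a quasi-binomial fit over all windows and the 3 regions, with Benjamini-Hochberg adjustment over all of them, and calls needed both an adjusted p below 0.05 and 20 points or more of difference. Between Type5b and Type5a both regions that could be tested were called higher, against 8.63% of all windows and regions tested. Peg10 was 64.3% ± 16.2 (SD, n = 3) in Type5b and 14.8% ± 18.4 (n = 5) in Type5a, a difference of 49.5 points (adjusted p = 0.0422 in the fit over all windows). Nap1l5 was 74.7% ± 13.2 (n = 3) in Type5b and 12.6% ± 12.3 (n = 5) in Type5a, a difference of 62.0 points (adjusted p = 0.0200 in that fit). Mest had 1 library of at least 5 measured sites in Type5b and got no test there. With all libraries 2627 of 29658 windows and regions were called in either direction. Without those of X measure above 0, which are 2 of the 5 in Type5a, it was 3106 of 24062. Both regions were still called there. The difference was then 48.8 points for Peg10 (adjusted p = 0.0184 in the fit over all windows) and 64.0 points for Nap1l5 (adjusted p = 0.000305), with Type5a at 15.5% for Peg10 and 10.7% for Nap1l5 (n = 3 each). The Peg10 call was lost without Type5a replicate 4 (47.0 points), 5 (46.0), 6 (45.8) or 7 (52.4) and without Type5b replicate 1 (50.7) or 2 (40.8). The Nap1l5 call was lost without Type5b replicate 1 (54.6 points). On sites measured in every stage the Peg10 call was lost (49.5 points, adjusted p = 0.0706 in the fit over all windows) and Nap1l5 was still called. On those sites 1126 of 18008 windows and regions were called in either direction.

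Over the whole span Peg10 and Nap1l5 were nearly full in Type7 and nearly empty in Type2. Type7 minus Type2 was 91.0 points for Peg10 (adjusted p = 0.00203 in the fit over all windows), with 99.0% ± 1.47 (SD, n = 2) in Type7 and 8.0% ± 2.52 (n = 3) in Type2. For Nap1l5 it was 96.7 points (adjusted p = 2.14e-05 in that fit), with 98.8% ± 1.73 (n = 3) in Type7 and 2.07% ± 1.86 (n = 3) in Type2. Both were called higher, as were 27.6% of all windows and regions tested. Mest, with 92.4% ± 10.8 in Type7 (n = 2) and 0% in the single Type2 library, got no test.

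The other steps gave no call. Type6 minus Type5b was 30.3 points for Peg10 (adjusted p = 0.233 in the fit over all windows) and -17.5 points for Nap1l5 (adjusted p = 0.887), against 2.97% of windows and regions called higher. Peg10 was 94.6% ± 3.17 in Type6 (n = 3), and Nap1l5 57.2% in the 2 Type6 libraries. Type7 minus Type6 was 41.6 points for Nap1l5 (adjusted p = 0.209), 23.5 points for Mest (adjusted p = 0.596) and 4.39 points for Peg10 (adjusted p = 0.897), against 1.04% called higher. From Type1 to Type5a no step passed for any region that could be tested. Of all windows and regions, 0% were called in either direction between Type2 and Type1, 0.00379% between Type3a and Type2, 0% between Type3b and Type3a, 0.0104% between Type4 and Type3b and 0.0243% between Type5a and Type4. The early Peg10 means were 25.5% for Type1, 8.0% for Type2, 29.6% for Type3a and 16.8% for Type3b. Without the libraries of X measure above 0 they were 7.05% in Type1 (n = 2) and 10.1% in Type3a (n = 2).

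By follicle class, antral oocytes were higher than secondary ones in all 3 regions. Peg10 averaged 96.3% ± 3.37 in antral libraries (SD, n = 5) and 27.0% ± 26.1 in secondary libraries (n = 13), a difference of 69.3 points (two-sided permutation p = 0.000233, adjusted over the 3 class steps 0.000700). Mest averaged 80.6% ± 20.3 in antral (n = 4) and 15.6% ± 28.1 in secondary libraries (n = 8), a difference of 65.0 points (exact permutation p = 0.0121, adjusted 0.0364). Nap1l5 averaged 82.2% ± 36.5 in antral (n = 5) and 26.3% ± 31.3 in secondary libraries (n = 13), a difference of 55.9 points (permutation p = 0.00864, adjusted 0.0259). These secondary libraries span Type4 to Type5b, so the steps within them are averaged. The share of all windows passing the same class comparison was not counted, so whether the regions differ from other windows here was not tested. Windows picked as low in Type2 and high in Type7 averaged 21.8, 23.1 and 69.3% in Type4, Type5a and Type5b. They averaged 86.9% in Type6 and 96.6% in Type7. The Nap1l5 value missed the threshold without Type6 replicate 3 (52.1 points), Type7 replicate 1 (51.5), 2 (51.4) or 3 (52.2), each at an adjusted permutation p of 0.0501, and was 72.2 points at the highest with 1 library left out.

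The Mest difference is the least firm of these. It kept its direction but missed the threshold without Type4 replicate 1 (62.8 points), 5 (62.8) or 6 (62.9), Type5a replicate 1 (63.0) or 5 (62.8), Type5b replicate 2 (62.8), Type6 replicate 2 (63.3) or Type7 replicate 1 (63.6) or 2 (58.5). With libraries of X measure above 0 left out it was 76.9 points (exact permutation p adjusted to 0.267, with 2 antral and 4 secondary libraries). Secondary minus primary was 24.5 points for Nap1l5 (permutation p = 0.0334, adjusted 0.0501), which did not pass, 11.5 points for Mest (adjusted exact permutation p = 0.796) and 3.85 points for Peg10 (adjusted permutation p = 0.792). Primary minus primordial was 6.47 points for Peg10, -8.96 for Mest and -3.55 for Nap1l5, and none passed.

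The regions were then compared with other windows of the same library. Of 29414 windows measured in both stages, 4329 (14.7%) were above 80% in Type7 and below 10% in Type2, and their mean level was 7.25, 2.31, 10.5, 12.8, 21.8, 23.1, 69.3, 86.9 and 96.6% in Type1, Type2, Type3a, Type3b, Type4, Type5a, Type5b, Type6 and Type7. Within the secondary libraries Peg10 minus these gaining windows was -6.24 points on average (above in 4 of 13 libraries, exact sign-flip permutation p = 0.0955). The difference was -7.03 points for Nap1l5 (above in 4 of 13, exact permutation p = 0.0847) and -20.6 points for Mest (above in 1 of 8, exact permutation p = 0.0703). None of these passed 0.05 with all libraries. Leaving out 1 library took each of them below it in some cases. The Peg10 value was -7.62 points without Type5a replicate 1 (exact permutation p = 0.0459) and -8.17 without Type5b replicate 2 (exact permutation p = 0.0254). The Nap1l5 value was -8.44 points without Type5a replicate 6 (exact permutation p = 0.0483) and -8.76 without Type5b replicate 1 (exact permutation p = 0.0347). The Mest value was -27.8 points without Type5a replicate 7, the library where Mest was 63.1% (exact permutation p = 0.0156). Each library named stood above its gaining windows, by 10.3 and 16.9 points for Peg10, 9.96 and 13.8 for Nap1l5 and 30.1 for Mest. Removing it thus lowers the mean by construction. Of 19 leave-outs, 17 for Peg10, 17 for Nap1l5 and 18 for Mest kept their side of 0.05 (highest exact permutation p 0.181, 0.163 and 0.141). Only 13 libraries enter the Peg10 and Nap1l5 tests and 8 the Mest test. The other leave-outs take away no value of the region and could change little, so these counts overstate how firm the results are. Without Type5b replicate 2, where Mest rests on 2 sites and 30 reads, the Mest value was -14.3 points.

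**Figure D2:**
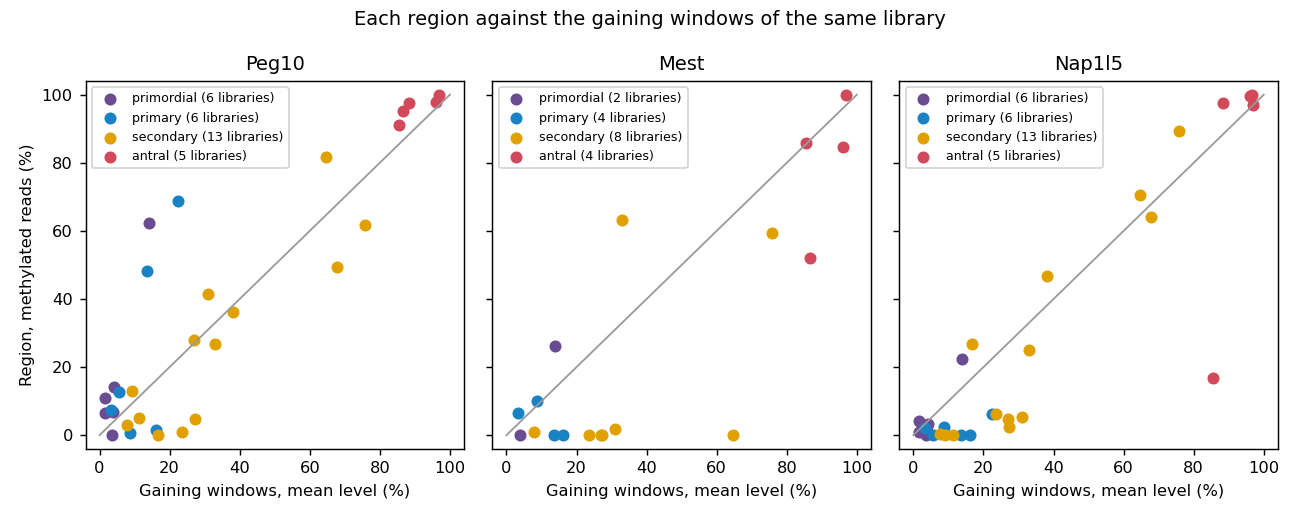
Level of each region against the mean level of the gaining windows of the same library (both in percent), coloured by follicle class, with the line of equal levels. Mest stays at 0 to 1.92% in 6 of its 8 secondary libraries, and Nap1l5 in Type6 replicate 2 (16.8%) lies far under the line.

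No pair of regions passed a test of their difference within secondary libraries. Mest minus Peg10 was -15.3 points ± 34.8 (SD over 8 libraries, exact permutation p = 0.242, adjusted over 3 pairs 0.586). Nap1l5 minus Mest was 9.84 points ± 30.8 (8 libraries, exact permutation adjusted p = 0.586), and Nap1l5 minus Peg10 was -0.793 points ± 18.2 (13 libraries, exact permutation adjusted p = 0.877). With Type5a replicate 7 left out, the Mest minus Peg10 difference was -22.7 points and the Nap1l5 minus Mest difference 16.7 points, each at an adjusted exact permutation p of 0.0469. That library had the Mest value of 63.1%. Without Type5b replicate 2, where Mest rests on 2 sites and 30 reads, they were -5.86 and 1.17 points (adjusted exact permutation p = 0.991 each). The order of the Type5b means was Nap1l5 at 74.7%, Peg10 at 64.3% and Mest at 29.6%, with spreads of 13.2, 16.2 and 41.9 points. The Mest mean joins 59.3% in replicate 1, over 10 sites, and 0% in replicate 2, over 2 sites.

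Site values were sorted as at or below 10%, at or above 90% or in between, pooled over the libraries of a stage. Whether the sites of a stretch agree within a library was not tested. In Type7, 22 of 23 Nap1l5 site values of at least 10 reads were at or above 90%, and in Type2 20 of 21 were at or below 10%. For Peg10 25 of 26 were at or above 90% in Type7, and 26 of 38 at or below 10% in Type2. In Type5b, 23 of 37 Peg10 values and 6 of 19 Nap1l5 values lay between these limits. For Peg10 it was 23 of 37 in Type1, 27 of 37 in Type3a, 9 of 35 in Type3b, 32 of 60 in Type4, 25 of 62 in Type5a and 6 of 38 in Type6. For Nap1l5 it was 7 of 16 in Type1, 15 of 38 in Type5a and 7 of 15 in Type6. In Type3a, Type3b and Type4 it was 1 of 20, 0 of 21 and 1 of 28 for Nap1l5. Of 12 Mest values in Type5b, 6 were at or below 10%, 6 at or above 90% and 0 in between.

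The Mest stretch was split site by site in Type5b replicate 1. Its sites had 42 to 48 reads each. PCR copies are counted, so the number of separate molecules behind these reads, and those of the libraries below, is not known. Sites 30685330, 30685423, 30685428, 30685443, 30685470 and 30685472 were at 95.3 to 100%, while 30685294, 30685433, 30685435 and 30685476 were at 0 to 2.38%. In the letters given above these are sites between which a few bases separate a full from an empty CpG. In Type6 replicate 1 sites 30685423, 30685433 and 30685470 were at 6.67, 6.67 and 0% and the other 7 at 71.4 to 73.3%. In Type7 replicate 1 site 30685435 was at 20.8% and all others at or above 80%.

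In Nap1l5 the site at 58856670 had the lowest Type5b mean of its stretch, and was chosen here after its values were seen. It had 12 of 29, 0 of 22 and 2 of 30 methylated reads in replicates 1, 2 and 3, a mean of 16.0%, against 12.1% in Type5a. Its neighbours at 58856649 and 58856718 averaged 85.2 and 91.0% in Type5b. The end sites of the stretch, 58856628 and 58856762, averaged 38.9 and 44.2% there (n = 2 each). In Type7 the site at 58856670 averaged 93.1%, with 97.0, 100 and 82.4% in the libraries. In Peg10, in Type5b replicate 3, the sites at 4697355, 4697363, 4697370 and 4697440 had no methylated read while the sites at 4697477 and 4697484 were above 90%.

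**Figure D3:**
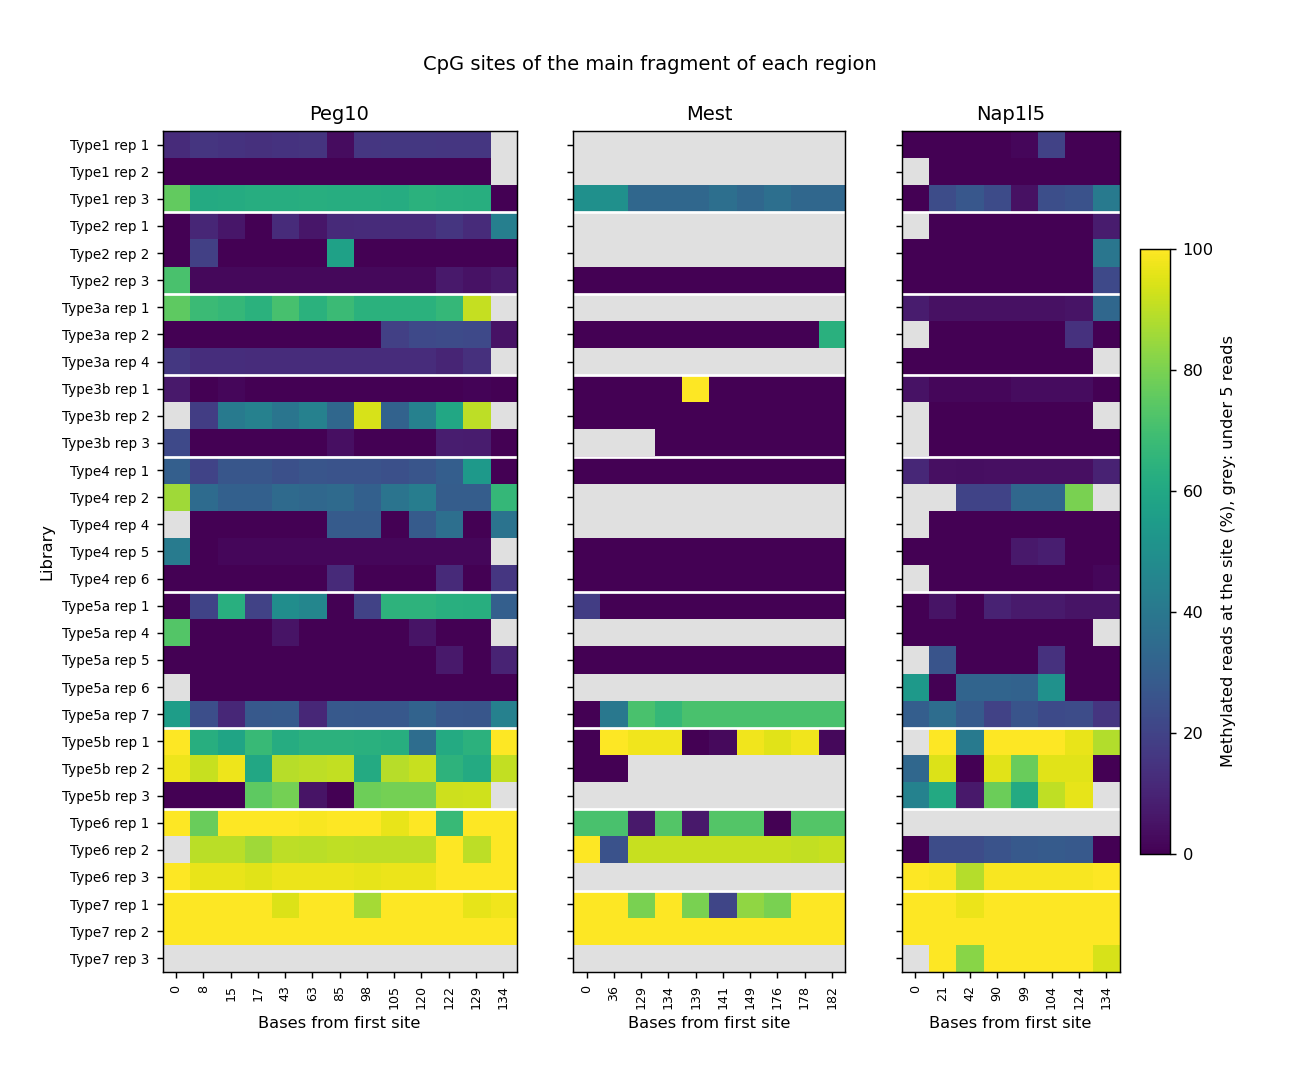
Percent of methylated reads at each CpG of the main stretch (columns, labelled by distance in bases from the first site) in every library (rows, stages in order, white lines between stages); grey means under 5 reads. The column at 42 bases of Nap1l5 has the lowest mean of that stretch in Type5b (16.0%, from 41.4, 0 and 6.67%). Mest in Type5b replicate 1 alternates between full and empty sites.

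In 100-bp tiles, fitted over all tiles of the genome, Nap1l5 tile 58856701 to 58856800 was 87.8% ± 8.50 in Type5b (n = 3) and 12.1% ± 12.3 in Type5a (n = 5), a difference of 75.7 points that was called (adjusted p = 0.00331 in the fit over all tiles), as were 4.28% of tiles. The Peg10 tiles were not called at that step. Tile 4697401 to 4697500, the higher in Type5b, differed by 51.7 points (adjusted p = 0.0623 in that fit), with 66.3% in Type5b and 14.6% in Type5a. Tile 4697301 to 4697400 differed by 47.8 points (adjusted p = 0.0632), with 62.8% in Type5b and 15% in Type5a. The neighbouring Nap1l5 tile, 58856601 to 58856700, was not called at that step either. It differed by 23.7 points (adjusted p = 0.817 in that fit), with 38.2% ± 5.42 in Type5b (n = 2) and 14.5% ± 15.8 in Type5a (n = 4). For Type7 minus Type2 both Peg10 tiles and both Nap1l5 tiles were called, as were 21.6% of tiles.

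Reads of the plus and minus strands gave different levels for Peg10 in many libraries. Of 25 libraries with at least 20 reads on each strand, 10 differed by over 20 points. Type1 replicate 3 had 75.7% on the plus strand (983 reads) and 0% on the minus strand (212 reads), and Type1 replicate 1 had 11.7% on the plus (1407 reads) and 100% on the minus strand (39 reads). Type5b replicate 1 had 95.8% on the plus strand (289 reads) and 16.9% on the minus strand (219 reads). In Nap1l5 4 of 23 libraries differed by over 20 points, the most by 28.1 in Type5a replicate 7. Mest was read almost wholly on the plus strand. A level near the middle in a Peg10 library can thus be the average of a high and a low strand. The number of separate molecules behind the reads of a strand is not known, since PCR copies are counted.

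**Figure D4:**
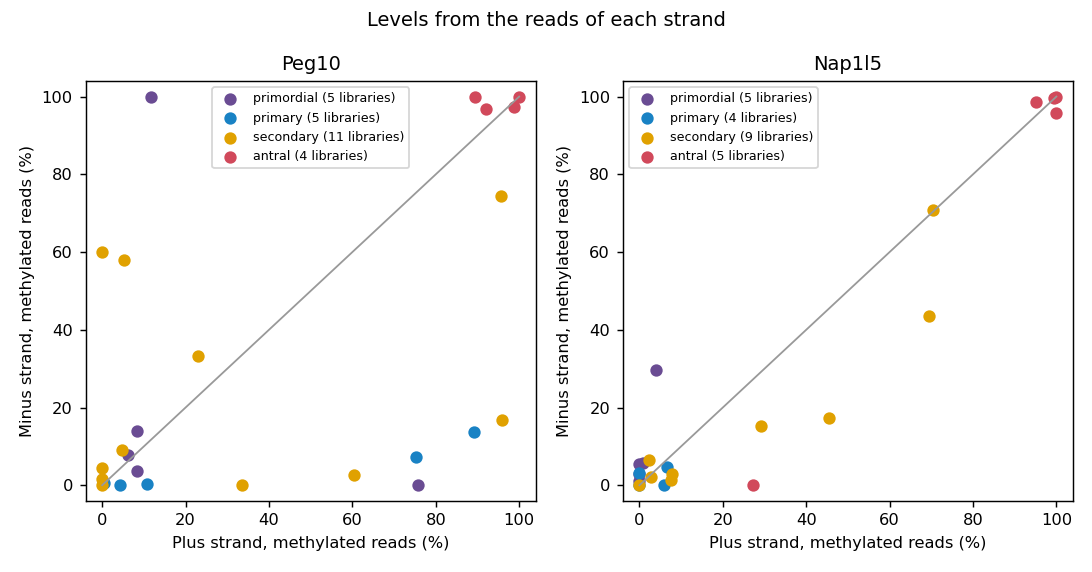
Percent of methylated reads on the minus strand against the plus strand, 1 point per library with at least 20 reads on each strand, coloured by follicle class, with the line of equal levels. For Peg10, 10 of 25 points lie over 20 points from the line, and antral libraries sit at the top right of both panels except Nap1l5 in Type6 replicate 2 (27.2% plus, 0% minus).

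Mest has a further group of sites that starts 2598 bases after the last site of its main stretch and was read in 6 libraries, mostly at fewer than 5 reads a site. Type1 replicate 3 had 0 of 98 methylated reads there, Type2 replicate 1 had 0 of 107, Type3b replicate 1 had 3 of 81, Type4 replicate 5 had 0 of 70 and Type4 replicate 6 had 5 of 133. Type5b replicate 3 had 24 of 24, over 8 sites with 3 reads each. The 5 earlier libraries thus read nearly empty and the Type5b library full, and with 1 library there is no test. In Type1 replicate 3 the main stretch of Mest was at 37.9%, and the region as a whole at 26.1% because 8 of these empty sites had at least 5 reads. The letters and spacing of the 2 sites that open the group, 30688074 and 30688091, match bases 25 and 42 of a Mest transcript in the RefSeq promoter table (build GRCm38.p6, chr6:30737800-30738099, plus strand), over 11 letters with no mismatch. This promoter is shown with CpG in capitals, since its end shares those letters.
Mest promoter: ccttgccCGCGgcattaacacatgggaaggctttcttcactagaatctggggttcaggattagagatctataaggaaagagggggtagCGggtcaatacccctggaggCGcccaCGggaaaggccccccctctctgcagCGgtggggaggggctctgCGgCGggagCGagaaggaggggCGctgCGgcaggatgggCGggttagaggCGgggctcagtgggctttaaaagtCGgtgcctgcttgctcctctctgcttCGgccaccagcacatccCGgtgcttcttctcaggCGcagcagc
It holds 17 CpG in 300 bases, a number that 31.4% of all promoters in the table reach or pass. The 2 matching sites had 6 methylated of 6 reads in Type5b replicate 3 and 0 of 24 reads over the 5 other libraries that measured them. No match to the promoter of Nap1l5 in the table was found among the sites read there.

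Other maternally methylated control regions passed through the same stages. Of 12 listed from general knowledge of mouse imprinting, 9 were measured in at least 2 libraries of each of Type2, Type5a, Type5b and Type7. All 9 were above 80% in Type7, and 8 were below 20% in Type2, where Snrpn was at 25.0% ± 33.3 (SD, n = 3). All 9 were at least 20 points higher in Type5b than in Type5a. Their Type5b means ran from 51.2 to 95% (median 70.9%), and their Type5a means from 7.48 to 39.1% (median 21.3%). The highest in Type5b were Igf2r, the receptor gene of insulin-like growth factor 2, at 95% ± 4.31 (SD, n = 3), and Snrpn, of the Prader-Willi region, at 86.8% ± 4.53 (n = 2). The lowest were Nnat, which encodes neuronatin, at 51.2% ± 32.5 (n = 3), and Inpp5f at 64.5% ± 12.1 (n = 3). Peg10 at 64.3% and Nap1l5 at 74.7% lay within this range, and the Mest mean of 29.6% lay under it. Of the 2 Mest libraries in that mean, the one with 10 sites, at 59.3%, lay inside the range, and the one with 2 sites was at 0%. This is a description with no test, and the share of all windows meeting the same limits was not counted. The gaining windows averaged 23.1% in Type5a and 69.3% in Type5b.

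**Figure D5:**
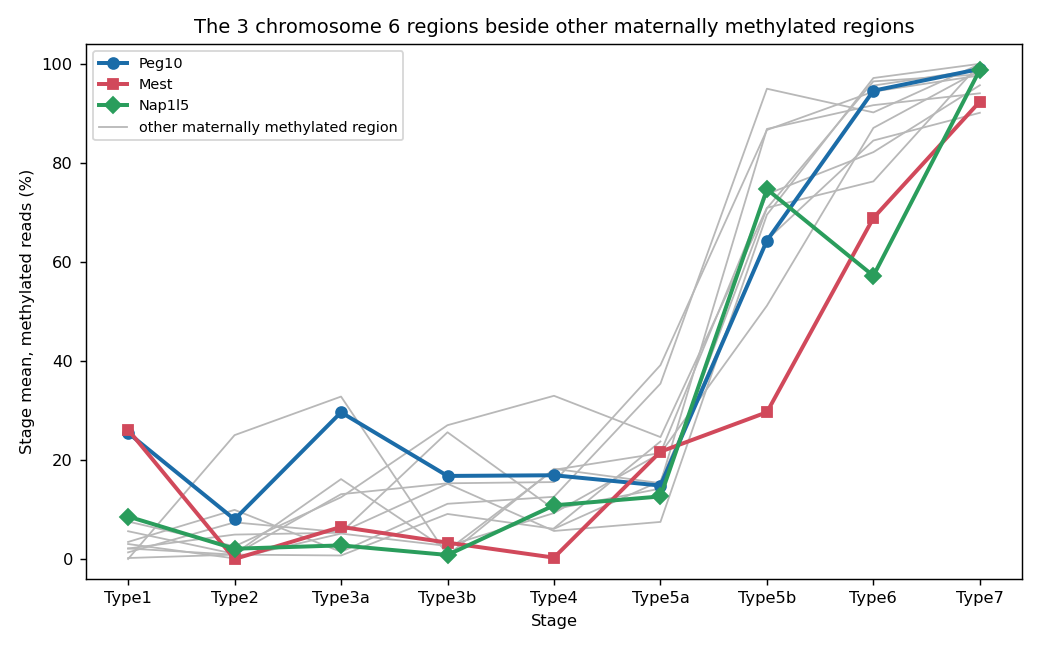
Stage means (percent of methylated reads) of Peg10, Mest and Nap1l5 and, in grey, of 10 other maternally methylated regions where at least 2 libraries were measured; Mest rests on 1 library in Type1, Type2 and Type3a. All lines lie below 40% in Type5a; in Type5b Mest (29.6%, the mean of 59.3 and 0%) lies under the grey lines, and in Type6 Mest (68.9%) and Nap1l5 (57.2%, the mean of 16.8 and 97.5%) do.

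Windows elsewhere were ranked by their distance from each region over the stage means, so those named are near by choice. How many windows lie within a given distance was not counted. For Mest the means rest on 1 library in each of Type1, Type2 and Type3a. Of 16698 windows measured in every stage, the one nearest to Peg10 over the 9 stage means was on chromosome 10 at 13848001 to 13851000 (mean absolute difference 4.46 points), then chromosome 4 at 8769001 to 8772000 (4.57) and chromosome 15 at 12288001 to 12291000 (5.27). For Mest they were chromosome 9 at 37227001 to 37230000 (5.41), chromosome 5 at 73461001 to 73464000 (5.42) and chromosome 6 at 124761001 to 124764000 (5.56). For Nap1l5 they were chromosome 5 at 118290001 to 118293000 (2.21), chromosome 10 at 120870001 to 120873000 (2.58) and chromosome 15 at 76497001 to 76500000 (3.38). Within 50 kb, 1 other window was measured in both Type7 and Type2 near Peg10, at 99.5% in Type7 and 0% in Type2. Near Mest there were 2, of which 1 reached 92.2% in Type7 and the other 0.0270%, and near Nap1l5 there were 0.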

How the data were processed

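For every CpG the deposited files hold counts of total and methylated reads, also by strand, and the authors' methylated fraction. Per the submitters' processing notes the tools were BSMAP 2.89 and build mm9. The methylation caller, and whether ends were trimmed, is not given in the sources used here; untrimmed MspI ends filled in during repair would read as unmethylated. From the values, a site needs 3 reads to be listed. Totals were 7949652 to 60361665 reads over sites in a library. Without molecular identifiers PCR copies are counted. Wilson 95% intervals and limits of a count of 0 (3 counts) leave out the spread among libraries. They also take reads at neighbouring sites as independent, so they are too narrow even for counting error. In 41 within-stage pairs the share of sites (at least 20 reads) with the same counts was 1.01% at most, and each library was kept as its own replicate.

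Reads of sites with 5 or more reads were added up by region, by 3000-bp window (5 or more such sites) and by 100-bp tile (3 or more). Steps between stages with 2 or more measured libraries each used an F test from a quasi-binomial fit of the read counts on stage. Its dispersion was moderated across windows in the manner of limma (squeezeVar), never below 1, with Benjamini-Hochberg adjustment over all features. The fit was tested on data simulated at 1 dispersion for all windows. That was below the dispersion of Peg10 (148) and Nap1l5 (51.8), so it does not show how the fit does for these 2 regions. Printed differences are between means of library levels, while the fit weights libraries by reads. Classes were compared by two-sided exact permutation of libraries and regions within a library by exact sign flips. The X measure used 63 X tiles and 2902 autosomal ones, all with 60 or more listed sites per kb. Members, lists and tests were chosen with earlier results of these data known, and positions of the other imprinted regions come from general knowledge. Windows named are the 3 nearest to each region over stage means among those with 10 or more listed sites. Imprinted regions named are the 2 highest and 2 lowest in Type5b, and tiles the highest and lowest there among those measured in 2 or more libraries of every stage; the Nap1l5 tile at 58856601 is outside this rule and was added after its values were seen. No mm9 annotation was used, so genes are not placed. Software was R 4.3.3 with limma 3.58.1, and Python 3.11.15 with pandas 2.3.3, scipy 1.17.1, numpy 2.4.6 and matplotlib 3.10.9.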

Additional observations from a re-analysis of the deposited data

Results flagged for a closer look

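The Nap1l5 level of 46.8% in Type4 replicate 2 stood apart from the other 4 Type4 libraries, which had 0 to 4.73%, by a gap of 0.899 of the group's whole range. It rests on 47 reads added over 9 sites, with 5 to 6 reads at each. The Wilson 95% interval of 33.3 to 60.8% takes these as independent, so it is too narrow even for counting error. The X measure of this library was 10.6 points and its gaining windows averaged 38.2%, each the highest in Type4, and their part in the value was not tested. On the 5 sites of the main stretch alone the level was 37.0%. Chance flags about 1 in 20 groups, and 1 of 4 groups was flagged here.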

How the results depend on the processing

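Over 281 alternatives to 36 results, 263 kept direction and side of the threshold; where one did not, the cause was not tested. With a minimum of 10 reads per site Mest antral minus secondary was 68.3 points (adjusted permutation p = 0.0952) and Peg10 Type4 minus Type3b -0.144. With at most 10 reads per site Peg10 Type4 minus Type3b was -0.171. On sites measured in every stage, where Mest has none and got no value, it was -0.525, Peg10 Type5b minus Type5a was 49.5 (adjusted p = 0.0706, limma-moderated fit) and Nap1l5 secondary minus primary 23.9 (adjusted permutation p = 0.0429). Unweighted site means gave Nap1l5 minus gaining windows -7.94 (exact permutation p = 0.0481). Without the libraries of X measure above 0, Mest antral minus secondary was 76.9, and sign changed for Peg10 Type2 minus Type1 (0.943), Type3b minus Type3a (6.66), Type4 minus Type3b (-8.82) and Type5a minus Type4 (7.57), for Nap1l5 Type2 minus Type1 (0.430), Type3a minus Type2 (-0.996) and Type4 minus Type3b (-0.678), and for Nap1l5 minus Peg10 (0.128), none of them called. Restricting regions to the main stretch, chosen after seeing the data, changed no call.

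With the replicate number as a block, Type5b minus Type5a was 34.4 points for Peg10 (adjusted p = 0.627) and 49.6 for Nap1l5 (adjusted p = 0.434), and neither was called; these stages share 1 number, so the block is fitted through other stages. The block changed no other call. Libraries of compared stages that share a number had correlations of -0.173 to 0.275 between their deviations from stage means, so the numbers were not taken as pairs. Windows called between Type5b and Type5a were 2627, 638 with the block, 1126 on sites measured in every stage and 877 without Type5b replicate 1. Between Type7 and Type2 they were 8138, 4390 on sites measured in every stage and 4953 without Type7 replicate 1. Between Type6 and Type5b they were 874, 1680 with the block, 538 on those sites, 383 at most 10 reads per site, 385 in a fit of the 2 stages alone and 574 with limma. Between Type7 and Type6 they were 379, with 766, 207 and 13 for the block, those sites and the fit of the 2 stages.

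Leaving out 1 library at a time, 321 of 380 values kept direction and side. These include leave-outs of libraries with no value of the region in the comparison, which could change it little or not at all. Peg10 ranged from -30.2 to 0.943 points for Type2 minus Type1, -28.5 to 6.66 for Type3b minus Type3a, -7.96 to 15.8 for Type4 minus Type3b, -8.72 to 2.74 for Type5a minus Type4, 40.8 to 56.9 for Type5b minus Type5a, -2.62 to 15.6 for primary minus primordial and -0.696 to 12.9 for secondary minus primary. Mest ranged from -4.68 to 0.272 for Type4 minus Type3b and 58.5 to 74.5 for antral minus secondary. Nap1l5 ranged from -10.8 to 0.430 for Type2 minus Type1, -0.996 to 2.04 for Type3a minus Type2, -1.72 to 10.8 for Type5a minus Type4, 54.6 to 67.4 for Type5b minus Type5a, 19.2 to 26.7 for secondary minus primary and 51.4 to 72.2 for antral minus secondary. Within secondary libraries Mest minus Peg10 ranged from -22.7 to -5.86, Nap1l5 minus Peg10 from -3.16 to 2.14, Nap1l5 minus Mest from 1.17 to 16.7, and Peg10, Mest and Nap1l5 minus gaining windows from -8.17 to -4.88, -27.8 to -14.3 and -8.76 to -5.48. Depth limits Mest most, with a median of 113.5 reads in 18 libraries.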
